A study of Rattus norvegicus with 18 samples.

Results

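The comparison described here is that of clone #4S2 INS-1 cells kept in 2 µg/ml doxycycline for 48 h against the same cells kept in it for 24 h. It rests on 3 arrays of each time, 6 of the 18 arrays of the study, which were chosen by their labels alone. INS-1 is a rat insulinoma line that makes insulin, and clone #4S2 is a double-stable derivative in which doxycycline switches on a mouse insulin 2 with the C96Y change, fused to EGFP. The question is how the response moves on as expression of the mutant insulin lasts longer. To separate time in culture from treatment, the same interval was examined in the 3 untreated cultures of 24 h and the 3 of 48 h, which carry the same regulator and transgene and were grown without doxycycline. All 4 groups come from 1 clone that had been sorted for its brightest cells after doxycycline, keep their own rat insulin genes, and have no counterpart here in cells without the transgene, so that on these arrays effects of the drug and of the mutant protein cannot be told apart. Of 9 beta-cell markers 8 were measured, and the weakest, Nkx6-1, averaged 1108 signal units at 24 h and 1094 at 48 h of doxycycline, against array medians of 113 to 134. All 7 acinar cell markers and 5 of 7 fibroblast markers averaged less than the array median in each group.

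A proinsulin that cannot form its normal disulfide bonds is held in the endoplasmic reticulum (ER), where it engages the unfolded protein response. IRE1 and ATF6 raise the transcription of ER chaperones, folding enzymes and the machinery of ER-associated degradation (ERAD), while PERK phosphorylates eIF2α, which lowers general translation and favours translation of ATF4. ATF4 in turn activates genes for amino acid synthesis, amino acid transport and tRNA charging, and, with CHOP, genes linked to cell death such as Trib3. In the Akita mouse the same insulin mutation leads to loss of beta cells and diabetes.

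Signals are given on the linear scale of the arrays, and differences as log2 of the 48 h signal over the 24 h signal, averaged over 3 arrays, with the standard error of the limma fit. The medians of the 6 doxycycline arrays lay between 113 and 134, and the ratio of the 3' to the 5' Gapdh probe set between 1.08 and 1.19. Replicate 1 of 24 h stood apart from its neighbours in both arms. Gcg, which encodes glucagon, gave 95.3 on that doxycycline array against 1129 and 852 on the others, and 359 on its untreated partner against 2379.6 and 1622. The untreated array was also high in amino acid genes and low in ER chaperones, and the list medians and between-arm differences that moved most with it are also given without it.

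Over the whole array, the further 24 h in doxycycline gave no probe set that passed the test. Of 31042 probe sets, 0 (0%) passed at an adjusted p under 0.05 (limma, Benjamini-Hochberg), and the smallest adjusted p was 0.766. With no adjustment, 857 probe sets reached p under 0.05 with a higher signal at 48 h and 841 with a lower one, 1698 in all, where 1552 would be counted if no probe set differed. The methods' t-test likewise gave 0 after Benjamini-Hochberg adjustment, with 844 higher and 796 lower before it. With each array centred on its median the split was 1084 higher and 429 lower. These counts moved with single arrays, to 1606 higher and 1597 lower without replicate 3 of 24 h, to 1317 and 1265 without replicate 1 of 48 h, to 407 higher without replicate 2 of 48 h, to 545 higher without replicate 3 of 48 h, and to 409 lower without replicate 1 of 24 h. In the untreated cultures 0 probe sets (0%) passed as well, while 553 were higher and 655 were lower before adjustment, at the same p. Taken over 14218 genes at 1 probe set each, 461 genes (3.24%) were higher in doxycycline and 338 (2.38%) were lower before adjustment, against 252 (1.77%) and 297 (2.09%) without it. With no threshold on p, 7269 of the 14218 genes were higher at 48 h in doxycycline and 6637 without it. The values of gene groups below are descriptions of size and direction beside these shares, and no gene named below passed the test within either arm when all arrays were used. In bulk cultures, fewer cells that express a gene and less RNA of it per cell cannot be told apart.

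The test of whether the doxycycline difference departed from the untreated one passed for 3 of 31042 probe sets (0.00966%). It set the log2 ratio of each treated culture to its untreated partner at 48 h against the same ratio at 24 h. Ifi27l2b was higher in this between-arm difference, and Sytl4 and Mafa were lower. None of the probe sets passed without pair 2 of 24 h, pair 2 of 48 h or pair 3 of 48 h, 1 passed without pair 1 of 48 h and 2 without pair 1 of 24 h, and 0 passed when the pairs were not used as blocks. Before adjustment, at p under 0.05, 1024 probe sets were higher and 896 lower, which at 1 probe set a gene came to 561 genes higher (3.95%) and 370 lower (2.6%). With no threshold on p, the between-arm difference was above 0 for 7554 of 14218 genes.

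Among genes whose 2 times did not overlap and whose signal reached the median of the arrays, the largest difference between 48 h and 24 h of doxycycline was that of Ifi27l2b, a member of a small family of interferon-inducible membrane proteins. Its signals were 1302, 2220.2 and 2003 at 24 h and 4056, 4274 and 3985 at 48 h, while the untreated cultures gave 740.4, 1122 and 909 and then 1165, 941 and 941. All 3 treated arrays of 48 h lay above all 3 of 24 h, whereas the untreated groups overlapped. The log2 difference was 1.19 ± 0.17 (SE, n = 3 per time, limma adjusted p = 0.766) with doxycycline and 0.15 ± 0.16 without it. The between-arm difference of 1.04 ± 0.12 passed (limma, adjusted p = 0.0241). This was not shared by the interferon-stimulated genes as a group. Their median difference over 18 genes was -0.05 in doxycycline, and it lay between -0.17 and 0.09 with each array left out. At p under 0.05 before adjustment, 0 members were higher and 2 lower, against 3.24% and 2.38% of all genes. Those 2 were Irf7 at -0.37 ± 0.15 and Isg15, which read between 10.3 and 87.2 on these arrays, at -1.53 ± 0.66.

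**Figure D1:**
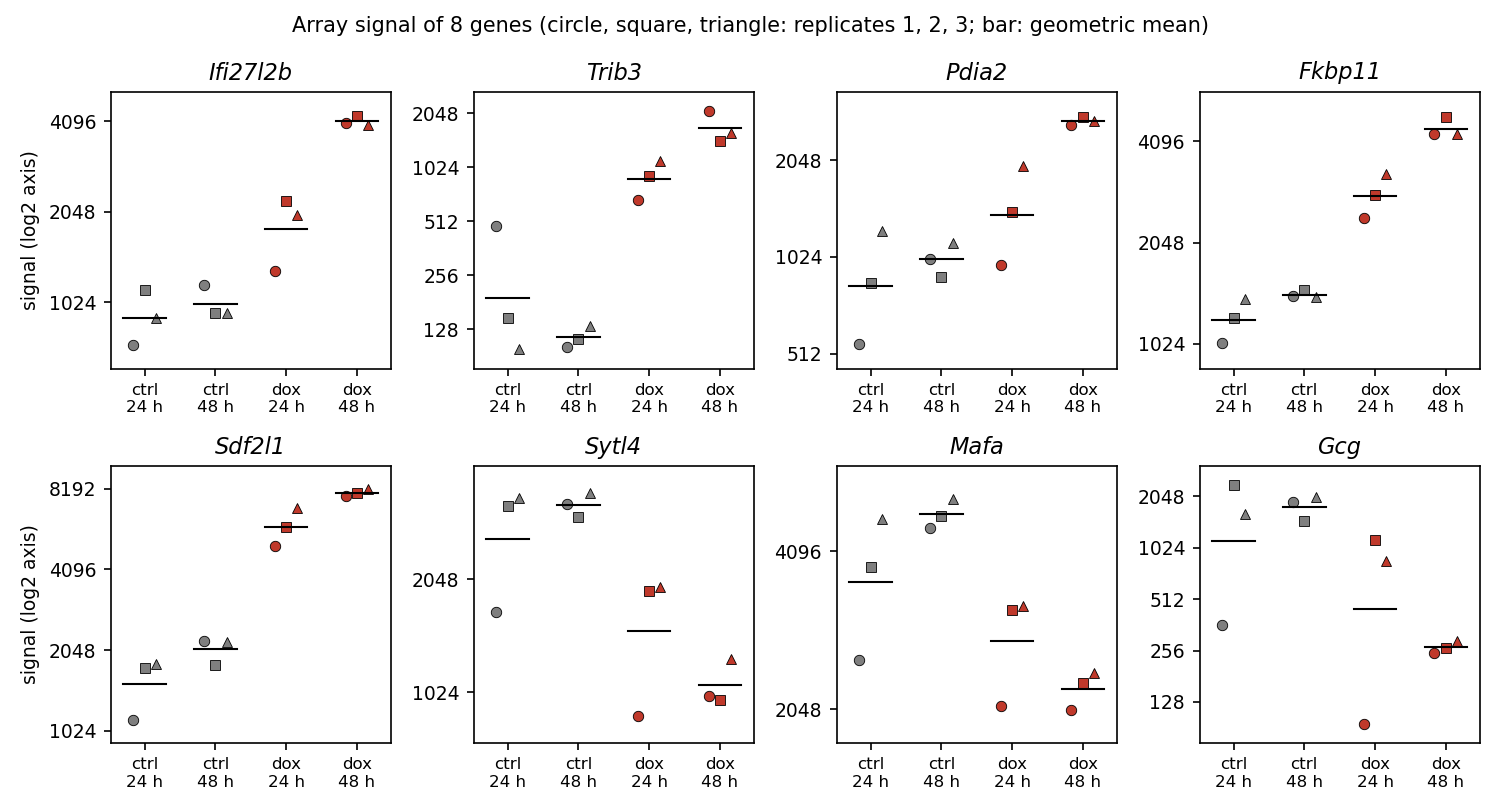
Signal of 8 genes on each of the 12 arrays of 24 h and 48 h, on a log2 axis. Grey points are untreated and red points doxycycline cultures, the marker shape gives the replicate number, and the bar is the geometric mean of 3 arrays. The 3 arrays of 48 h in doxycycline lie above all other arrays for Ifi27l2b, Trib3, Pdia2, Fkbp11 and Sdf2l1, and Gcg spans 95.3 to 1129 at 24 h of doxycycline.

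Trib3 had the largest difference among targets of the ATF4 branch by the same rule. It encodes a pseudokinase that is induced through ATF4 and CHOP and inhibits Akt. The doxycycline arrays read 669, 912 and 1110.3 at 24 h and 2096, 1439 and 1592 at 48 h, without overlap. The untreated arrays read 482, 148 and 99.3 and then 102, 112 and 134, so that the first untreated array of 24 h alone stood out. The doxycycline difference was 0.94 ± 0.19 (SE, n = 3 per time, limma adjusted p = 0.847) and the untreated difference -0.74 ± 0.48. The between-arm difference of 1.68 ± 0.54 did not pass (limma, adjusted p = 0.71), and it was 0.82 without the first pair of 24 h. Of the other 2 probe sets of Trib3, 1 gave a doxycycline difference of 0.84 and the other 0.24.

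The targets of PERK, ATF4 and CHOP were, as a group, higher at 48 h than at 24 h of doxycycline. All 17 genes on the list were measured, and 14 of them were higher. At an unadjusted p under 0.05, 6 were higher and none was lower, against 3.24% and 2.38% of all genes. The groups did not overlap for 4, where 6.48% of all genes were higher without overlap and 5.32% lower. The median difference was 0.27, against 0.01 over all 14218 genes, and it stayed between 0.24 and 0.33 when each of the 6 arrays was left out in turn.

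Atf4 itself, the transcription factor of this branch, read 9567, 9122 and 11484 at 24 h and 12372, 13152 and 13335 at 48 h. The groups did not overlap, and the difference was 0.37 ± 0.12 (limma, adjusted p = 0.847). Ddit3, which encodes CHOP, gave 2129.9, 2293 and 2622 and then 2952, 2626 and 2795, a smaller difference of 0.25 ± 0.11. Nupr1, a stress-induced nuclear protein, gave 3961, 3723 and 4881 and then 5118, 5260.4 and 5634, or 0.36 ± 0.12. For both genes the lowest array of 48 h lay above the highest of 24 h. The transcription factors Cebpb, at 0.49 ± 0.19, and Atf5, at 0.40 ± 0.16, were higher on average while their arrays overlapped. Vldlr and Sesn2 were close to 0, at -0.03 and -0.07, with Vldlr at 0.04 after median centring. The lowest of the 17 genes on the list was at -0.55.

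The same list went the other way in the untreated cultures, with a median of -0.17 and 1 of 17 genes higher. That value leaned on the first untreated array of 24 h, without which it was -0.02. The between-arm difference had a median of 0.51 and was above 0 for 17 of 17 genes. Of these, 6 were at an unadjusted p under 0.05, against 3.95% of all genes, and without the first pair of 24 h the median was 0.30. None of the 17 passed on its own. What else that array contributed to the between-arm difference was not tested.

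Genes that supply amino acids ran alongside. Of 16 genes of amino acid synthesis 14 were higher at 48 h of doxycycline, with a median of 0.24. An unadjusted p under 0.05 was reached by 4 of them, against 3.24% of all genes. In the untreated cultures the median was -0.24, or -0.02 without the first array of 24 h. Pycr1, which makes proline, read 1028, 622 and 999.6 at 24 h and 1121, 1295 and 1456 at 48 h of doxycycline, a difference of 0.57 ± 0.18. Its untreated cultures read 516, 136 and 159 and then 143, 169 and 128, and the between-arm difference was 1.20 ± 0.32 (limma, adjusted p = 0.709), or 0.72 without the first pair of 24 h. Asns, asparagine synthetase, was 0.32 ± 0.12 higher and Oat, ornithine aminotransferase, 0.32 ± 0.12.

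Other genes had between-arm differences that came wholly or mostly from the untreated side. Gpt2, which makes alanine from pyruvate, read 471, 311 and 332 at 24 h and 477, 289 and 361 at 48 h of doxycycline, a difference of 0.01 ± 0.21. The untreated cultures read 363, 126 and 109 and then 125, 74.9 and 37.5, which gave -1.28 ± 0.52 there. The cystine transporter Slc7a11 gave 414, 375 and 336 and then 518, 435 and 434 in doxycycline, against 224, 48.2 and 54.6 and then 27.6, 29.4 and 49.1 without it. Its treated groups were apart, with a difference of 0.22 to 0.38 when each array was left out. All its untreated readings but the first lay under the median of their array. The between-arm differences of 1.29 ± 0.38 and 1.60 ± 0.47 did not pass (limma, adjusted p = 0.71 for both). Without the first pair of 24 h they were 0.93 and 0.96, and that of Gpt2 was 0.84 without the third pair of 48 h. A second probe set of Gpt2 gave 0.63.

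Amino acid transporters had a median of 0.25 over 12 genes in doxycycline with 0 at an unadjusted p under 0.05, and of -0.35 without it, which was -0.12 without the first array of 24 h and -0.54 without the second. Of 19 cytosolic aminoacyl-tRNA synthetases, which charge tRNAs, 17 were higher at 48 h of doxycycline, with a median of 0.15. An unadjusted p under 0.05 was reached by 4 of them, against 3.24% of all genes. Qars1 gave 1425, 1459.6 and 1633 and then 1885, 1856 and 2055, or 0.36 ± 0.10, and Tars1 gave 2039.5, 2380.4 and 2125 and then 2893, 2511 and 2663, or 0.30 ± 0.10. In both genes the 2 times were apart. Their 13 mitochondrial counterparts, which serve the translation of the organelle, had a median of -0.02 and 0 at that level.

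**Figure D2:**
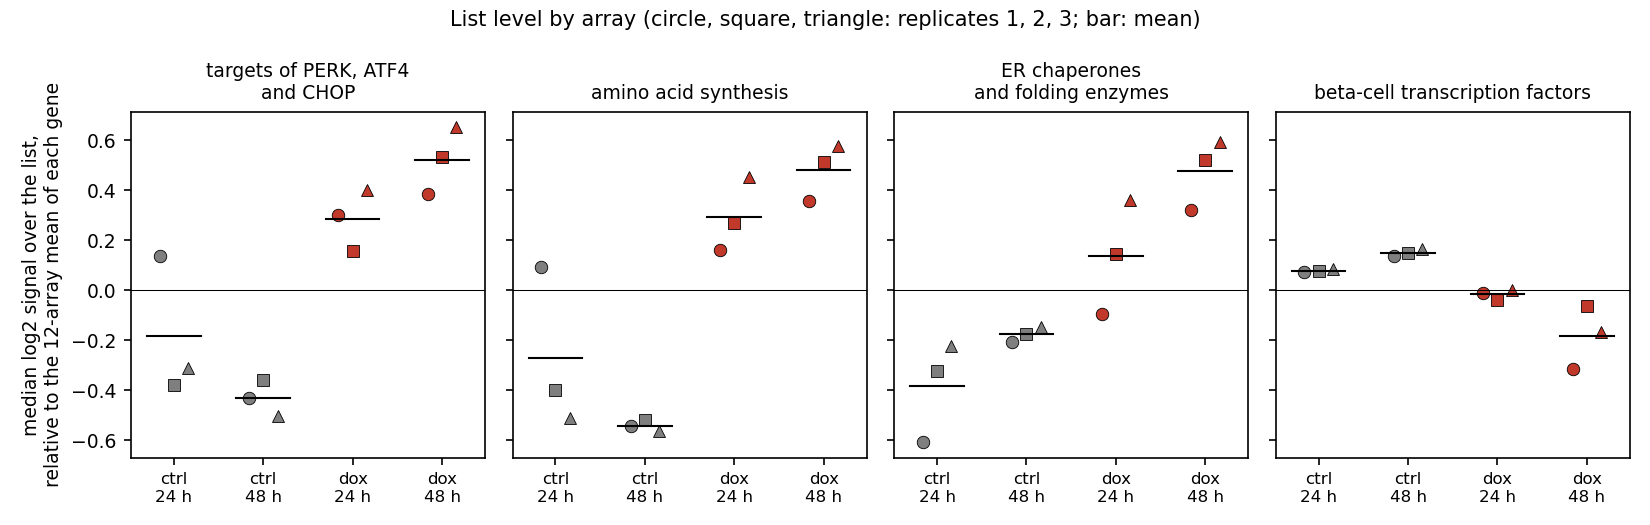
Level of 4 gene lists on each of the 12 arrays. The vertical axis is the median over the list of each gene's log2 signal minus its mean over the 12 arrays, grey is untreated, red is doxycycline, the marker shape gives the replicate number and the bar is the mean of 3 arrays. Targets of PERK, ATF4 and CHOP lie between 0.16 and 0.40 at 24 h and between 0.38 and 0.65 at 48 h of doxycycline, and the first untreated array of 24 h reads 0.14 where the other untreated arrays read -0.31 or less.

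ER chaperones and folding enzymes had a median difference of 0.32 over 29 genes, the highest of the lists with the signals as deposited. Of these, 27 were higher at 48 h of doxycycline. At an unadjusted p under 0.05, 15 were higher and none was lower, against 3.24% and 2.38% of all genes. The same genes were higher in the untreated cultures as well, with a median of 0.23 and 25 of 29 genes higher. There 5 were higher at an unadjusted p under 0.05, against 1.77% of all genes. Both medians moved with single arrays and with scaling. The doxycycline median was 0.22 without replicate 1 of 24 h, 0.48 without replicate 3 of 24 h and 0.19 after quantile normalization, below that of the targets of PERK, ATF4 and CHOP in the first and last of these (0.29 in each), and the untreated median was 0.08 without its replicate 1 of 24 h and 0.16 after quantile normalization.

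The between-arm difference was above 0 for 24 of the 29 genes, with a median of 0.13, and before adjustment 9 reached p under 0.05 upward and 1 downward, against 3.95% and 2.6% of all genes. None passed the test. Pdia2, a pancreatic protein disulfide isomerase, read 963, 1408 and 1969 at 24 h and 2634, 2797 and 2703 at 48 h of doxycycline, against 549, 847 and 1235 and then 1011, 888 and 1130.3 without it. The treated groups were apart and the untreated ones overlapped. Its doxycycline difference was 0.97 ± 0.20 and its between-arm difference 0.69 ± 0.11 (limma, adjusted p = 0.104), which passed when probe sets under the 50th percentile of mean signal were left out (adjusted p = 0.0489).

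Fkbp11, a peptidyl-prolyl isomerase of secretory cells, read 2417, 2846 and 3274 and then 4299, 4834 and 4300.5 in doxycycline. The difference was 0.66 ± 0.12 (limma, adjusted p = 0.847), against 0.25 ± 0.12 without doxycycline. Pdia4, another disulfide isomerase, gave 1967, 4362 and 4318 and then 6221, 5421 and 4859, or 0.71 ± 0.26. Its first array of 24 h was the low one, and without that array the difference was 0.33. Kdelr3, a receptor that returns chaperones from the Golgi to the ER, gave 323, 391 and 569.5 and then 606, 671 and 707, or 0.67 ± 0.19.

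Other chaperones differed by about as much in both arms. Sdf2l1, a partner of the ER-resident Hsp40 proteins, read 5017, 5883 and 6928 and then 7668, 7893 and 8179 in doxycycline, and 1123, 1751 and 1818 and then 2214, 1809 and 2189 without it. The difference was 0.43 in each arm, with a standard error of 0.12 in doxycycline and 0.18 without. The between-arm difference of -0.01 ± 0.11 had a confidence interval of -0.25 to 0.24. Manf, a secreted ER stress protein, was 0.41 ± 0.13 higher in doxycycline and 0.38 ± 0.14 higher without it, with an interval of -0.15 to 0.21 for the between-arm difference. For Hspa5, the main ER chaperone BiP, the values were 0.33 ± 0.16, 0.38 ± 0.15 and an interval of -0.25 to 0.15. Its doxycycline difference ranged from 0.22 to 0.48 with arrays left out, and was as low as 0.013 under another alternative. Treated cultures were already well above untreated ones at 24 h for Sdf2l1, by log2 ratios of 2.16, 1.75 and 1.93 per pair, and stood at 1.79, 2.12 and 1.90 at 48 h. These intervals are at the level of 95%.

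**Figure D3:**
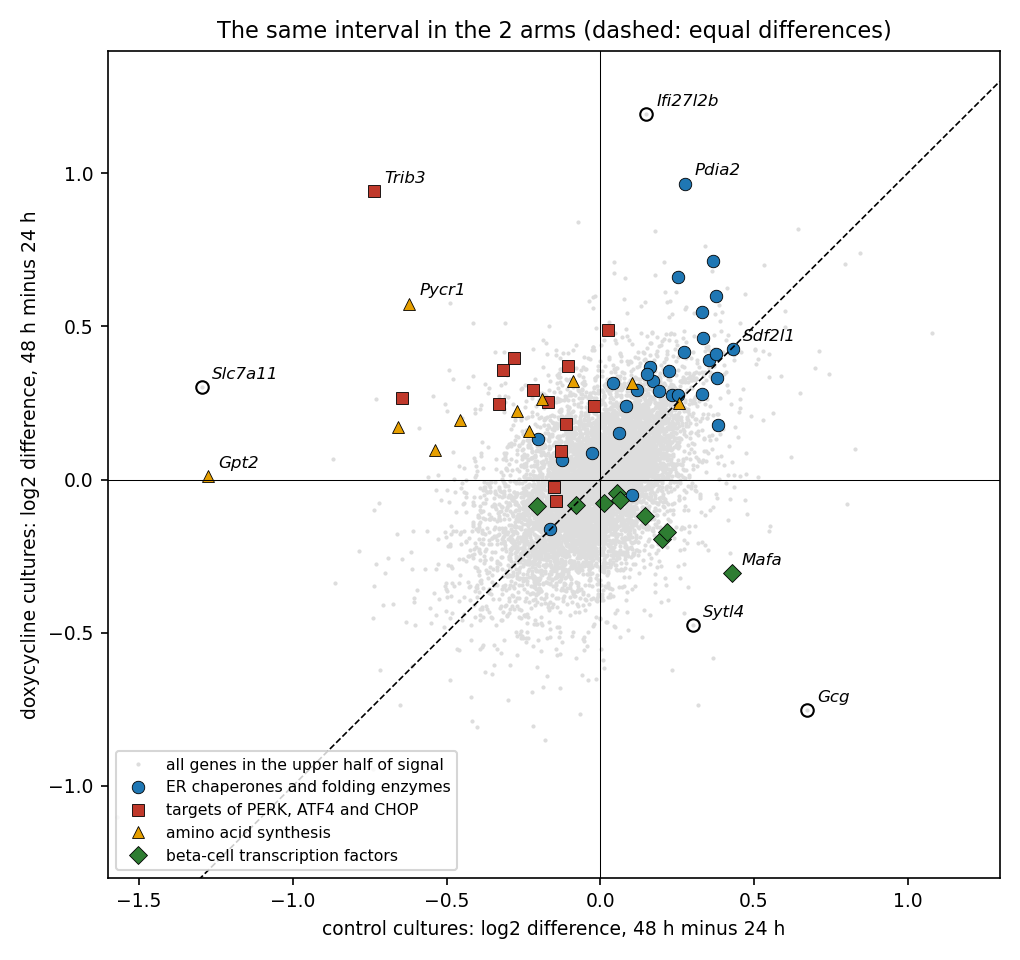
Log2 difference between 48 h and 24 h in doxycycline (vertical axis) against that in untreated cultures (horizontal axis), each point 1 gene at 1 probe set with a mean signal at or above the median of all probe sets. The dashed line marks equal differences and colours mark 4 lists. Most ER chaperones lie to the upper right, among them Pdia2 at 0.97 in doxycycline and Sdf2l1 at 0.43 in both arms, while Trib3, Pycr1 and Slc7a11 lie to the upper left and Mafa, Sytl4 and Gcg to the lower right.

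The steps around folding followed with smaller values. ERAD, where 3 genes were higher in doxycycline at an unadjusted p under 0.05, against 3.24% of all genes, covered 17 genes. It had a median of 0.23 in doxycycline and 0.10 without it. These medians were 0.11 and -0.0035 without replicate 1 of 24 h of the arm. Os9, a lectin that delivers misfolded glycoproteins to the ubiquitin ligase Hrd1, read 1320.2, 1528 and 1779 and then 2016, 2452 and 2251, or 0.54 ± 0.13. Selenos, a partner of the retrotranslocation complex, gave 0.42 ± 0.13, while Herpud1 was 0.23 ± 0.13 and Sel1l 0.31. Other probe sets of Sel1l gave 0.12 and 0.24.

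All 18 measured genes of ER translocation were higher at 48 h of doxycycline, with a median of 0.22. An unadjusted p under 0.05 was reached by 7 of them, against 3.24% of all genes. In untreated cultures 17 of 18 were higher, with a median of 0.15 and 3 at that level, against 1.77% of all genes. Ssr4, a subunit of the translocon-associated complex, read 7711, 8502 and 10272 and then 11148, 13418 and 14314, or 0.56 ± 0.14 against 0.28 ± 0.11 without doxycycline. The signal peptidase subunit Sec11c was 0.45 ± 0.16 higher and the channel subunit Sec61a1 0.40 ± 0.14. ER-Golgi transport and N-glycosylation each had a median of 0.17 in doxycycline, over 25 and 18 genes. Their untreated medians were 0.09 and 0.10, with 22 and 12 genes higher, and their between-arm medians 0.05 and 0.15. In doxycycline 3 and 5 genes were higher at an unadjusted p under 0.05, against 3.24% of all genes. Among them were Tmed3 at 0.43 ± 0.17 and the oligosaccharyltransferase subunits Ddost and Rpn2 at 0.41 ± 0.16 each. After quantile normalization the translocation median was 0.11 and that of ER-Golgi transport 0.08, and the latter was 0.06 without replicate 1 of 24 h, where that of N-glycosylation was 0.09. The other 2 probe sets of Sec61a1 gave 0.12 and 0.05.

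The proximal promoters of both kinds of genes were searched for the elements of their factors. ATF4 binds the amino acid response element, searched for here as TGATGNAA, and ATF6 the ER stress response element, searched for as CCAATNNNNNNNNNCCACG, both on either strand of the 300 bases from 250 before to 50 after the start of a gene (RefSeq, GRCr8). The first was found in 1048 of 27457 windows (3.82%), in 4 of 15 targets of PERK, ATF4 and CHOP (26.7%), 3 of 14 genes of amino acid synthesis (21.4%), 3 of 11 amino acid transporters (27.3%), 7 of 17 cytosolic synthetases (41.2%) and 0 of 25 ER chaperones. The second was found in 21 windows (0.0765%), of which 7 were among the 25 chaperones (28%), and in 0 of the 15 ATF4 and CHOP targets. The lists were drawn up from known biology of these factors, so that this is a description of their members and not of the response. A match is a description of the letters, not a site that was shown to be bound.

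The windows of 3 genes of each kind are shown to let the element be seen in place, with its letters in capitals, and they were chosen after their values were seen. Trib3, Nupr1 and Pycr1 hold the amino acid response element, and Hspa5, Creld2 and Dnajc3 the ER stress response element. Each is written 5′ to 3′ along the strand of the gene, so that an element on the opposite strand appears as its reverse complement.
Trib3 (chr3:161275484-161275783, minus strand): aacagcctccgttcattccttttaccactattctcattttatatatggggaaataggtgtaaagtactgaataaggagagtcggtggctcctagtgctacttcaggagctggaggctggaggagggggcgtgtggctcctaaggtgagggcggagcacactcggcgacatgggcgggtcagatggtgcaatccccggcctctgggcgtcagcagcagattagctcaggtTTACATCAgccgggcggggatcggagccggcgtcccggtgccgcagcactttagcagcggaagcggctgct
Nupr1 (chr1:190645852-190646151, minus strand): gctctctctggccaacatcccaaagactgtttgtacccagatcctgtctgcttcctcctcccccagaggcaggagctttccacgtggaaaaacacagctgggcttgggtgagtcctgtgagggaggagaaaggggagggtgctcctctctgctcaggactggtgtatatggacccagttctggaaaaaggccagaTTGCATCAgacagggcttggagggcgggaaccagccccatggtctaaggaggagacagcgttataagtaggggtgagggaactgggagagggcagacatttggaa
Pycr1 (chr10:106420763-106421062, minus strand): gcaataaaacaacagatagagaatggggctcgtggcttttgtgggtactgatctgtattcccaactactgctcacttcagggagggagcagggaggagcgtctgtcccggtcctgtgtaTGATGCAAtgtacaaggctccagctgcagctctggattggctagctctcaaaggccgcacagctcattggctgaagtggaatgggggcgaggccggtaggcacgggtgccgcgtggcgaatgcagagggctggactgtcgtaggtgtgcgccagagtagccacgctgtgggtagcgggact
Hspa5 (chr3:38452766-38453065, plus strand): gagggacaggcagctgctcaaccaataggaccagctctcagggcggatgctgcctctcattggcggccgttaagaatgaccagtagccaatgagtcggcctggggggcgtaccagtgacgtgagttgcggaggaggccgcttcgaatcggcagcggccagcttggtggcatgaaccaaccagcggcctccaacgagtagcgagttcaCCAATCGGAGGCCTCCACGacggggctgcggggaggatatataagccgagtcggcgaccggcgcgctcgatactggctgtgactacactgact
Creld2 (chr7:121789134-121789433, plus strand): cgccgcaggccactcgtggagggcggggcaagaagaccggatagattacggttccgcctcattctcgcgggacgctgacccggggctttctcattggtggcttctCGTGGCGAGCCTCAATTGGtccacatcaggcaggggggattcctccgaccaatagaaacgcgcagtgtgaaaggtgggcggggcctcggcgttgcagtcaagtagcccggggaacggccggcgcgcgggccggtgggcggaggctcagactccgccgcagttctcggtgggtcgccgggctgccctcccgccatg
Dnajc3 (chr15:102432417-102432716, plus strand): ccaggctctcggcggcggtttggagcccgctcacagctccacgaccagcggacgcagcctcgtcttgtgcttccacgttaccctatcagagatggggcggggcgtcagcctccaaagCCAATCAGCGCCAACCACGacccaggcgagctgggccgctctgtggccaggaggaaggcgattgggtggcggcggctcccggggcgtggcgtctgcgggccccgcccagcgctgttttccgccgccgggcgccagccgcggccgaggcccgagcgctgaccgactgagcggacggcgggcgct
Creld2, an ER-resident disulfide isomerase, was 0.28 ± 0.17 higher in doxycycline and 0.33 ± 0.23 without it, and Dnajc3, a co-chaperone of BiP, 0.60 ± 0.24 and 0.38.

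Sytl4, or granuphilin, which docks insulin granules at the plasma membrane, read 884, 1909 and 1949 at 24 h and 1002, 973 and 1255 at 48 h of doxycycline, against 1677, 3204 and 3363 and then 3243, 2999 and 3477 without it. The groups overlapped in both arms, and in doxycycline the low first array of 24 h alone made them overlap. Per pair the log2 ratio of treated to untreated was -0.92, -0.75 and -0.79 at 24 h and -1.70, -1.62 and -1.47 at 48 h. The ratios of the 2 times were far apart, and the between-arm difference was -0.78 ± 0.09 (limma, adjusted p = 0.0241), made up of -0.48 ± 0.26 in doxycycline and 0.30 ± 0.22 without it.

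Mafa, a transcription factor that drives the insulin gene in mature beta cells, read 2081, 3162 and 3223 and then 2037, 2297 and 2404 in doxycycline. Untreated cultures read 2544, 3830.5 and 4733 and then 4534, 4788 and 5168. The ratios per pair were -0.29, -0.28 and -0.55 at 24 h and -1.15, -1.06 and -1.10 at 48 h. The between-arm difference was -0.73 ± 0.09 (limma, adjusted p = 0.0287), from -0.30 ± 0.16 in doxycycline and 0.43 ± 0.19 without it.

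These 3 between-arm calls rested on the blocks for pairs and on the moderated spread. None was made without the block, without the variance trend or with a floor on low signals. The call of Mafa was also lost with quantile normalization (limma, adjusted p = 0.0661) and with a pseudocount of 16 (limma, adjusted p = 0.0534). The direction of all 3 was the same under every alternative run.

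Gcg had the largest negative between-arm difference by the rule for large differences. It read 95.3, 1129 and 852 at 24 h and 249, 265 and 290.5 at 48 h of doxycycline, with 359, 2379.6 and 1622 and then 1896, 1464 and 2023 without it. The 3 arrays of 48 h lay inside the range of 24 h, since replicate 1 of 24 h was lower than all of them. The doxycycline difference was -0.75 ± 0.70 (limma, adjusted p = 0.885), and without that array it was -1.87 and passed (adjusted p = 0.0150). The between-arm difference was -1.43 ± 0.22 (limma, adjusted p = 0.102), with ratios per pair of -1.91, -1.08 and -0.93 at 24 h and -2.93, -2.47 and -2.80 at 48 h, and it passed at -1.73 without the first pair of 24 h. Replicate 1 of 24 h was set apart by its Gcg signal among other readings, so the values without it are no separate test of Gcg. Of the 4 measured markers of other islet cells, Gcg alone averaged more than the array median.

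Of 9 measured beta-cell transcription factors 0 were higher at 48 h of doxycycline and 7 were higher without it, with medians of -0.09 and 0.06. No doxycycline difference reached an unadjusted p of 0.05, where 2.38% of all genes did so in this direction, and the median was -0.02 with median centring, -0.16 without replicate 2 of 24 h and -0.15 without replicate 2 of 48 h. In the between-arm difference, 4 of the 9 were lower at an unadjusted p under 0.05, against 2.6% of all genes. Beside Mafa these were Pdx1, which specifies pancreas and beta cells, at -0.39 ± 0.13, Isl1 at -0.39 ± 0.13 and Neurod1 at -0.26 ± 0.09. Pdx1 read 1358, 1378 and 1271 and then 1099.8, 1171 and 1234 in doxycycline, where the times were apart, and Neurod1 7391, 7422 and 7254 and then 6704, 7089 and 6557, also apart.

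Signals of the insulin genes themselves were not lower. Ins1 read 15479, 15024 and 20998 at 24 h and 17518, 25077 and 29769 at 48 h of doxycycline, a difference of 0.47 ± 0.20, against 0.37 ± 0.15 without it. Ins2 differed by 0.33 ± 0.16 and 0.34 ± 0.13, and whether its probe set also reads the mouse transgene was not tested. Across the alternatives the doxycycline difference ranged from 0.17 to 0.69 for Ins1 and from 0.05 to 0.47 for Ins2. Over 20 genes of islet hormones and granules the median was 0.10 in doxycycline and 0.23 without it. The between-arm difference had a median of -0.05, with 7 of 20 genes above 0 and 4 lower at an unadjusted p under 0.05, against 2.6% of all genes. After quantile normalization the doxycycline median was -0.05 and the untreated one 0.01.

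Cell cycle genes had a median of -0.05 over 31 genes in doxycycline and of 0.03 without it. In doxycycline 4 genes were lower at p under 0.05 before adjustment and 1 was higher, against 2.38% and 3.24% of all genes. The doxycycline median was -0.19 without replicate 1 of 48 h and -0.16 without replicate 3 of 24 h, and it was 0.02 with median centring. The untreated median was -0.01 after quantile normalization. Bub1b, a kinase of the spindle checkpoint, read 753, 771 and 635 and then 689, 454 and 398, a difference of -0.52 ± 0.19. Tyms, thymidylate synthase, gave 521, 549 and 504 and then 360.4, 405 and 391, or -0.45 ± 0.12, and these groups were apart. The others were Birc5 at -0.43 ± 0.18 and Mki67 at -0.22 ± 0.10, both linked to dividing cells, and the gene that was higher was Mcm7, a subunit of the replicative helicase, at 0.23 ± 0.09. In the between-arm difference 11 of the 31 were lower at that level and 1 was higher, against 2.6% and 3.95% of all genes, and none passed the test. Myc, which promotes growth and division, was higher, with 935, 877 and 924 and then 1341, 1554 and 1185, or 0.57 ± 0.12, and without overlap.

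Of 7 genes for sensors and their transcription factors 6 were higher, with a median of 0.21 and 0 at an unadjusted p under 0.05, and Eif2ak3, which encodes PERK, was 0.21 ± 0.13 higher. That median was 0.10 without replicate 1 of 24 h and 0.27 with median centring. The untreated median was -0.11. Between arms the median was 0.33, or 0.24 without the first pair of 24 h, with 6 of 7 genes above 0 and 3 at an unadjusted p under 0.05, against 3.95% of all genes. These were Eif2ak3 at 0.43 ± 0.12, Atf6, the sensor that is cleaved in the Golgi, at 0.33 ± 0.13 and the related factor Creb3l1 at 0.48 ± 0.21, none of which passed. The median of 18 apoptosis regulators was 0.01, or -0.12 without replicate 1 of 48 h, with 9 genes higher and 9 lower. Only 1 of the 18 reached an unadjusted p under 0.05, where 3.24% of all genes were higher at that level. This was Bbc3 (Puma), a BH3-only activator of cell death, with 712, 792 and 866 and then 884, 1078 and 919, or 0.28 ± 0.12.

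Among the remaining lists, sterol and fatty acid synthesis had a median of 0.15 over 21 genes in doxycycline and 0.19 without it. Insig1, an ER membrane protein that holds back sterol synthesis, was 0.42 ± 0.16 and 0.46 higher in the 2 arms. Glycolysis and hypoxia-responsive genes gave 0.12 and 0.03, cytosolic heat shock proteins 0.11 and 0.16, NRF2 targets 0.00 and -0.13, glucose sensing and excitability -0.03 and 0.07, and immediate early genes -0.01 and 0.12. The heat shock medians were 0.0098 and 0.014 after quantile normalization, the doxycycline median of glycolysis and hypoxia-responsive genes was 0.18 with median centring, and that of NRF2 targets was 0.09 without replicate 3 of 48 h. The marker lists of fibroblasts and acinar cells had medians of 0.13 and 0.24 in doxycycline, with 0 genes at an unadjusted p under 0.05, on signals that mostly lay under the array median.

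**Figure D4:**
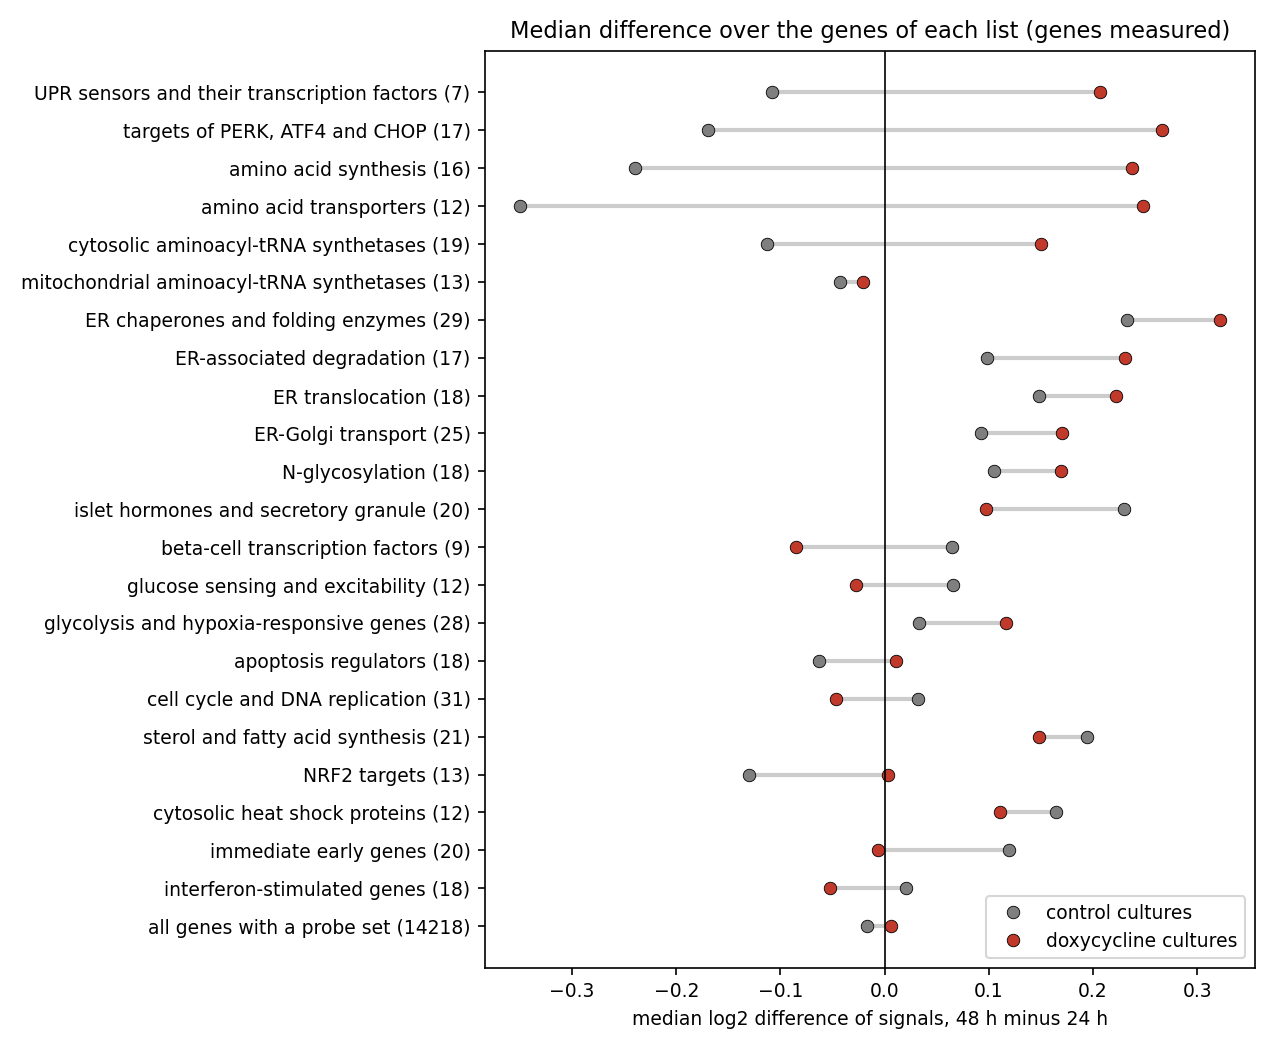
Median log2 difference between 48 h and 24 h over the measured genes of each list, with their number in brackets, grey for untreated and red for doxycycline cultures. The arms lie on opposite sides of 0 for targets of PERK, ATF4 and CHOP (-0.17 and 0.27) and for amino acid synthesis (-0.24 and 0.24), and on the same side for ER chaperones (0.23 and 0.32).

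Beside the genes already described, the rule for large increases named 6 more, all without overlap and none passing the test. Hoxb13, a homeobox factor, read 188, 149.9 and 166 and then 249.9, 374 and 289, or 0.84 ± 0.20, and Naxd, a repair enzyme for hydrated NADH, 259.7, 282 and 345 and then 489, 512 and 417, or 0.68 ± 0.16. Unc5b, a netrin receptor, and Serpinb9b, a serine protease inhibitor, were each 0.68 ± 0.20 higher, Pced1a was 0.71 ± 0.24 and Spata33 0.61 ± 0.26 higher. A second, dimmer probe set gave 0.18 for Naxd, 0.07 for Spata33 and 0.59 for Unc5b.

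The 12 largest decreases by the same rule came mostly from dim probe sets, of which Cryzl1-ps1, at up to 992 units, was the brightest. Cutal, at -0.94 ± 0.32, and Ms4a8, at -0.93 ± 0.21, headed them, and both were also lower without doxycycline, at -0.74 and -0.57. The complement inhibitor Serping1 was -0.81 ± 0.28, the glutathione transferase Mgst3 -0.79 ± 0.19, Leng9 -0.77 ± 0.24, Nudt1, which clears oxidized nucleotides, -0.74 ± 0.21, and the receptor subunit Gabrq -0.74 ± 0.32. Prp2l1, S100a1, Tagln3, Cryzl1-ps1 and Adcyap1r1, the last of which is the receptor for the peptide PACAP, lay between -0.69 and -0.65. Adcyap1r1 read 225, 278 and 269 and then 140.2, 162 and 191, against -0.01 ± 0.18 without doxycycline. Of genes with other, dimmer probe sets, Leng9 gave -0.04, Prp2l1 -0.21 and 2.04, and Adcyap1r1 between -0.88 and -0.49. Among the largest between-arm differences, Bex2 was -0.88 ± 0.16, from -0.08 in doxycycline and 0.80 without it. Banp was -0.95 ± 0.31, from -0.58 in doxycycline and 0.37 without it. Gabrq was -1.05 ± 0.33, and the transporter Slc4a11 was 0.99 ± 0.40. None of these between-arm differences passed.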

How the data were processed

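RNA of clone #4S2 cells was read by the authors on Affymetrix rat arrays, with 3 independent experiments per group and 18 arrays in all. The deposited values are intensities on a linear scale, 1 for each probe set of each array, and the arrays had been brought to a common trimmed mean by the authors. The program and the background correction behind these values are not named in the sources used here. Detection calls were not used. The number of arrays limits the precision.

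Groups and replicate numbers were taken from the labels. The log2 of the deposited intensities was used with no further scaling. Of 31099 probe sets, 57 controls were left out and 31042 were tested with limma (version 3.58.1, R 4.3.3, empirical Bayes with a variance trend) and Benjamini-Hochberg adjustment at 0.05. The 6 doxycycline arrays and the 6 untreated arrays were fitted separately and unpaired. The between-arm difference was fitted to 12 arrays with 6 blocks, 1 for each same-numbered treated and untreated pair at 1 time, since the study lists ratios per experiment. In a check of these pairs, the correlations of their deviations from the group means were 0.671, 0.478 and 0.662 for 24 h and 0.579, 0.267 and 0.379 for 48 h. Between arms, the highest value for arrays of different number was 0.218, for untreated replicate 2 and treated replicate 3 of 48 h. Pair 2 of 48 h was thus little closer than that. Identical values were not found in any pair of arrays.

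Through the platform annotation 20826 probe sets had 1 gene, 436 several and 9780 none. Of the first, 20758 matched RefSeq (GRCr8) by gene number, and 4 more were named from the list of the study. For each gene the probe set with the highest mean signal was used. By rule, the genes named are the 12 largest increases and 12 largest decreases (those that passed, filled up with those whose groups did not overlap at an unadjusted p under 0.05 and a signal at or above the median), the 6 largest between-arm differences each way, 4 members per list by size of difference, and ER genes that the study names. Some list members under this rule are not described, and some named beside them were chosen after their values were seen. The members and lists were chosen with earlier results of these data known. The procedure was tested on simulated data, in which the noise of each array was drawn separately. Simulated pairs thus shared no variation, so this could not check the blocks for pairs. Alternatives were quantile normalization, median centring, a floor at the 10th percentile, a pseudocount of 16, a filter at the 50th percentile, quantile normalization with floor and filter, no variance trend, other blocks, the methods' t-test, a fit of 12 arrays, and leaving out each array.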

Additional observations from a re-analysis of the deposited data

Results flagged for a closer look

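In 3 genes the doxycycline and untreated differences between 48 h and 24 h departed from each other by the test of that departure itself. Ifi27l2b was higher by 1.04 on the log2 scale, and the ratio of treated to untreated was higher at 48 h than at 24 h in every pair. Sytl4 was at -0.78 and Mafa at -0.73, and for both the ratio was lower at 48 h in every pair. Without the first pair of 24 h, which stood apart, Ifi27l2b was at 0.96, and its adjusted p was 0.0563 without the untreated array and 0.0590 without the treated one. Mafa was then at -0.69, with 0.136 and 0.135, while Sytl4 still passed. With any other pair left out instead, Sytl4 did not pass (limma, adjusted p from 0.0900 to 0.234). The cause of these departures was not tested.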

How the results depend on the processing

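Within doxycycline, 1 probe set passed without the variance trend and 0 to 1 with each array left out (1 without replicate 1 and 1 without replicate 3 of 24 h), and 0 under the other alternatives. Before adjustment, 449 were higher and 514 lower with the filter at the 50th percentile, 406 and 327 with quantile normalization, floor and filter together, and 1084 and 429 with median centring, and 407 to 1606 were higher and 409 to 1597 lower with each array left out. In untreated cultures the filter gave 344 higher and 275 lower, the combined setting 137 and 179, and median centring 607 and 432, and leaving out arrays gave 301 to 936 higher and 385 to 1028 lower. The filters test fewer probe sets by construction, and other causes were not tested.

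Between arms, 10 probe sets passed with the filter, 0 with the floor, 0 with no replicate block, 0 without the variance trend, 0 with a replicate block by number, and 0 to 3 with an array left out. Before adjustment these were 557 higher with the filter, 564 and 592 (higher and lower) in the combined setting, 497 and 331 with no replicate block and 588 and 456 with the block by number. Across times the same numbers did not pair the arrays (correlations of 0.17, -0.18 and 0.23 in doxycycline and 0.04, -0.24 and 0.22 without it). The highest correlations joined different numbers. Replicate 2 of 24 h and replicate 1 of 48 h gave 0.29 in doxycycline and 0.44 without it. Replicate 3 of 24 h and replicate 2 of 48 h gave 0.23 and 0.31. The unpaired fits take no account of such links, and their origin was not tested. A replicate block within doxycycline gave 0 calls, with 1190 higher and 1043 lower before adjustment.

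The median of beta-cell transcription factors in doxycycline was -0.021 with median centring and -0.16 to -0.094 with arrays left out. Leaving out arrays gave untreated medians of -0.31 to -0.019 for amino acid synthesis and 0.045 to 0.15 for beta-cell transcription factors. Between arms it gave 0.30 to 0.63 for targets of PERK, ATF4 and CHOP, 0.27 to 0.64 for amino acid synthesis and -0.21 to -0.12 for beta-cell transcription factors. Leaving out either array of a pair removes that pair from the between-arm fit.

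Of 2226 values that 86 genes took under the alternatives, 2192 kept their direction and 34 did not, 28 of them with an array left out. With all arrays these differences lay between -0.08 and 0.10. Within doxycycline, Vldlr was at 0.039 with median centring and at -0.14 to 0.12 with arrays left out, Gpt2 at -0.18 to 0.19 and Bex2 at -0.35 to 0.069. Between arms, Manf was at -0.055 with quantile normalization, alone or with floor and filter, and Mcm7 at 0.0066 with these and 0.0013 with median centring. With arrays left out, Manf lay between -0.023 and 0.076, Mcm7 between -0.031 and 0.059, Sdf2l1 between -0.11 and 0.10, Hspa5 between -0.094 and 0.017 and Ins1 between -0.019 and 0.18. The causes were not tested.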
